A study of Homo sapiens with 21 samples.

Results

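The HOX genes are the homeobox genes of the HOXA, HOXB, HOXC and HOXD clusters, and their levels were compared across 7 lines of SUM149PT, an established human inflammatory breast cancer cell line. Members were the protein-coding genes whose symbol is HOX, a cluster letter and a number only, which gave 39 of the 60617 genes in the tables. Poly(A) RNA was sequenced from one end, from 3 libraries of each line, and no line was treated. The lines were the clones labelled EM3, EM2, EM1, M2, M1 and E, and the uncloned parental line (Parental). All 7 share the SUM149PT origin, are labelled as inflammatory breast cancer cells without estrogen and progesterone receptor, and were grown as the cell bank recommends. The labels do not spell out the clone letters, and the series title speaks of an in-between EMT state (epithelial to mesenchymal transition). Each named clone is 1 clone, so a difference between 2 clones compares those clones and cannot be told apart from clonal variation.

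HOX proteins are DNA-binding transcription factors that give cells their position along the head-to-tail axis of the embryo and along the limbs. Within a cluster the genes act in the order in which they lie on the chromosome, low-numbered genes in anterior structures and high-numbered genes in posterior ones, and adult cells often keep part of the pattern of their site of origin. Polycomb proteins hold HOX genes silent and Trithorax (MLL) proteins hold them active, which is how a pattern can pass through cell division. In the breast, HOX genes are known from ductal branching and from tumours, where some are silenced and others, such as HOXB7 and HOXB9, have been tied to invasive behaviour.

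The promoters of 3 members are printed first because HOXA11 was near 0 in M2 alone, HOXA4 reached 1 TPM in M2 alone, and HOXD8 ran between almost none in EM2 and its highest level in M2. TPM is RSEM's transcript abundance, a level scaled by gene length and library. Each sequence is the 250 bases before the RefSeq transcription start (GRCh38.p14), 5′ to 3′ on the gene's strand, with every CG dinucleotide in capitals. They lie at chr7:27185233-27185482 on the minus strand for HOXA11, chr7:27130758-27131007 on the minus strand for HOXA4 and chr2:176129455-176129704 on the plus strand for HOXD8.
HOXA11: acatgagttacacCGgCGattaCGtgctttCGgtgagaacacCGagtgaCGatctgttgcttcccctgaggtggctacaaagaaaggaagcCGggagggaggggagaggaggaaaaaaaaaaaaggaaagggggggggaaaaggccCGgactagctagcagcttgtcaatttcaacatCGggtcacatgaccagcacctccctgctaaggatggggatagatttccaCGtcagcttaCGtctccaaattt
HOXA4: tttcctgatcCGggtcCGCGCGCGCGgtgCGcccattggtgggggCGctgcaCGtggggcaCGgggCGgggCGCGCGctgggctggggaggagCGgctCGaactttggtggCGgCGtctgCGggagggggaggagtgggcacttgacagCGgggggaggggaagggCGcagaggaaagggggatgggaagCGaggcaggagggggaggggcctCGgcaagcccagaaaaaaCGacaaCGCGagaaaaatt
HOXD8: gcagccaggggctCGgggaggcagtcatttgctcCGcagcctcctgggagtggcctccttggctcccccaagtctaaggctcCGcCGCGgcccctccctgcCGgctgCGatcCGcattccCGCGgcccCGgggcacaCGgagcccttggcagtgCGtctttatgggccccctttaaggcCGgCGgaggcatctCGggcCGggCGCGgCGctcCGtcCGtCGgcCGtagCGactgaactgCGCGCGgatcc
The HOXA11 window held 11 CG dinucleotides, the HOXA4 window 26 and the HOXD8 window 28, against a median of 11 over all 35116 RefSeq promoter windows of that length. Fewer CG were found in 49.7% of all windows for HOXA11, 80.4% for HOXA4 and 84.1% for HOXD8. The letters TATAAA, searched on both strands, were in none of the 3 windows and in 10.7% of all windows. The letters CCAAT, searched likewise, were in the HOXA4 window once and in 32.0% of all windows. RefSeq entries matched 20 of the 39 members with 27 windows, which held 0 to 40 CG with a median of 19. The libraries measured RNA and not the state of these promoters.

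Library totals were 24.6 to 48.1 in units of 1e6 expected counts. The 18 clone libraries fell into 2 sets by the mean effective length of the tested genes, which was 1862 to 1905 bases in all E libraries and replicate 3 of every other clone, 1962 to 2052 bases in replicates 1 and 2 of those clones, and 1918 to 1961 bases in Parental. E thus lay wholly in the short set, and its differences from other clones were refitted with the set as a term. Summed TPM of 5 epithelial markers was 1330 to 2800 in EM3, 1100 to 2460 in EM2, 1480 to 3050 in EM1, 518 to 759 in M2, 328 to 568 in M1, 5850 to 6500 in E and 1420 to 2610 in Parental. Summed TPM of 5 mesenchymal markers was 1750 to 2080 in EM3, 1460 to 2270 in EM2, 901 to 1420 in EM1, 2230 to 3420 in M2, 6690 to 7430 in M1, 462 to 504 in E and 346 to 910 in Parental. Summed TPM of 9 blood and endothelial markers was 0.99 to 4.10 in EM3, 2.59 to 4.15 in EM2, 0.67 to 2.22 in EM1, 1.25 to 1.79 in M2, 2.14 to 3.50 in M1, 4.06 to 6.05 in E and 1.35 to 2.84 in Parental. CD14 made up most of it, and CD3E was listed at 0 in every library of EM1, M2, M1, E and Parental. ESR1 and PGR, the receptors that the label gives as missing, summed to 0 to 2.29 TPM. The part of these markers in the results was not tested, and in bulk RNA fewer cells of a type and less RNA per cell cannot be told apart.

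The lines shared a set of HOXC and HOXA genes and differed in which genes stood beside it. A member was counted as expressed in a line at a mean of at least 1 TPM. HOXA9, HOXA10, HOXC4, HOXC6, HOXC8, HOXC9, HOXC10, HOXC11 and HOXC13 reached that level in all 7 lines, and 19 of 39 members reached it in at least 1 line. The number was 14 in EM3, 14 in EM2, 14 in EM1, 15 in M2, 15 in M1, 11 in E and 13 in Parental. The other 20 members stayed below 1 TPM in every line, and HOXB1, HOXB2, HOXB4, HOXB5 and HOXD4 had no count in any library.

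**Figure D1:**
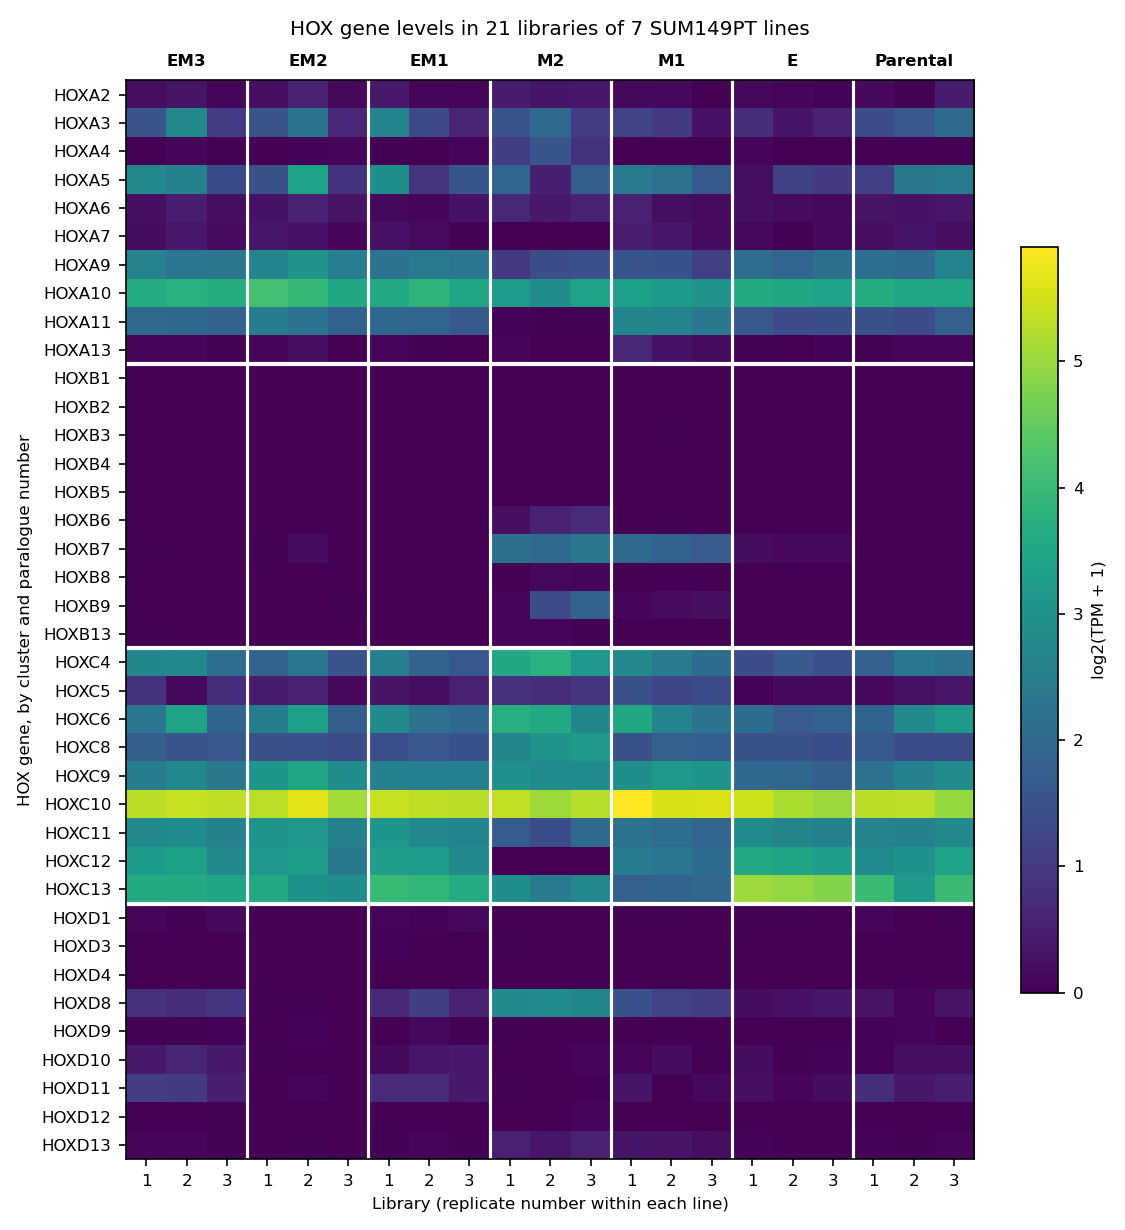
Level of 38 of the 39 HOX genes (rows, in paralogue order within the HOXA, HOXB, HOXC and HOXD clusters) in each of the 21 libraries (columns, 3 per line), as log2(TPM + 1). HOXC10 is bright in every library, HOXB genes show colour mainly in M2 and M1, HOXC12 and HOXA11 are dark in M2, and HOXD8 is brightest in M2.

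The HOXC cluster, on chromosome 12 from 53938765 to 54056030 (hg38, GENCODE 29), held most of the signal. All 9 of its members were expressed in at least 1 line and 7 in all lines. Summed HOXC TPM was 82.2 ± 9.14 in EM3, 80.8 ± 18.7 in EM2, 82.0 ± 8.60 in EM1, 78.6 ± 5.50 in M2, 83 ± 12 in M1, 91.3 ± 11 in E and 77.9 ± 3.32 in Parental (mean ± SD, n = 3). The library ranges of that sum overlapped between all lines. The HOXC share of the HOX total averaged 72.1 to 83.2% per line, and all E libraries, at 82.0 to 84.4%, were above every other library. The ranges of the whole HOX total overlapped too, with means of 112 ± 14.9 TPM in EM3, 113 ± 29.8 in EM2, 109 ± 14.8 in EM1, 107 ± 4.61 in M2, 108 ± 16.8 in M1, 110 ± 11.7 in E and 102 ± 6.92 in Parental.

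The smaller clusters separated the lines. The HOXB cluster (chromosome 17, 48528526 to 48729178) summed to 5.57 ± 1.89 TPM in M2, 2.81 ± 0.362 TPM in M1 and at most 0.123 TPM in any other line, and was at 0 in Parental. The HOXD cluster (chromosome 2, 176092891 to 176190907) summed to 2.17 ± 0.324 TPM in EM3, 0.0700 ± 0.0819 in EM2, 1.68 ± 0.523 in EM1, 6.37 ± 0.169 in M2, 1.85 ± 0.508 in M1, 0.463 ± 0.103 in E and 0.900 ± 0.265 in Parental. The 3 M2 libraries were above, and the 3 EM2 libraries below, every other library for HOXD. The HOXA cluster (chromosome 7) summed to 28.0 ± 5.54 TPM in EM3, 31.8 ± 10.9 in EM2, 25.2 ± 6.2 in EM1, 16.6 ± 1.17 in M2, 20.3 ± 4.40 in M1, 17.7 ± 0.601 in E and 23.4 ± 3.66 in Parental. Every EM and Parental library was above every E and M2 library, while M1 overlapped both.

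**Figure D2:**
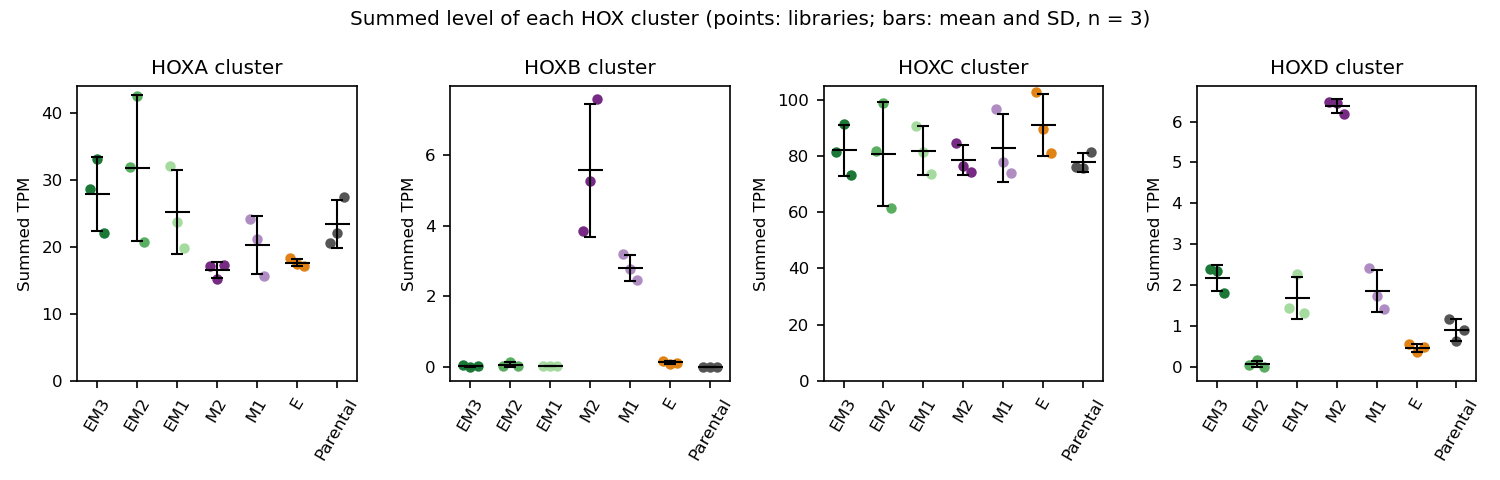
Summed TPM of the members of each HOX cluster, by line, with a point for each library and bars for the mean and SD of 3. The HOXC means lie between 77.9 and 91.3 TPM, while the HOXB points leave 0 visibly only in M2 and M1 and the HOXD points are highest in M2 and lowest in EM2.

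Reads were counted per gene without a strand setting given in the sources used here. Of the 39 gene bodies 22 overlap another HOX gene and 25 overlap an antisense gene, so reads of these pairs may not be told apart. HOXA3 spans HOXA4, HOXA5 and HOXA6, HOXB7 spans HOXB8 and HOXB9, HOXC6 overlaps HOXC4, HOXC8 and HOXC9, and HOXA9 overlaps HOXA10. HOXC4 also overlaps HOXC5, and HOXD10 overlaps HOXD11. Values of these genes are uncertain to that extent.

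Of the 39 members 25 passed the low-count filter and were tested among 18632 genes, and 14 were not. A gene was called at a Benjamini-Hochberg adjusted p under 0.05 in edgeR's quasi-likelihood test, adjusted over all genes tested. Asked whether any of the 7 lines differed, the test called 20 of the members, beside 62.5% of all genes tested. The 5 tested members that were not called were HOXA2, HOXA3, HOXA5, HOXA6 and HOXC10, although the first 4 were called in single comparisons of lines. HOXA4 passed the filter through M2 alone, and HOXB7, HOXB9 and HOXD13 through M2 and M1 alone, so that differences of these genes were built into the filter. HOXA11 and HOXC12 did not pass through M2, HOXD8 did not pass through EM2, HOXD10 passed through EM3, EM1 and Parental alone, and HOXD11 through EM3, EM1, E and Parental alone. HOXC5 did not pass through E, HOXA13 not through M2, HOXA2 not through M1 or E, and HOXA6 passed through EM2, M2 and M1 alone.

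In EM3 10 members were called against E (7 higher and 3 lower), or 40% of the 25 tested and 25.6% of all 39, beside 17.3% of all genes tested (9.36% higher and 7.96% lower). In EM2 the count was also 10 (5 higher and 5 lower), beside 13.9% of all genes tested (6.95% higher and 6.95% lower). In EM1 5 were called (2 higher and 3 lower), or 20.0% of the 25 and 12.8% of the 39, beside 17.9% (9.84% higher and 8.09% lower). In M2 20 were called (12 higher and 8 lower), or 80% of the 25 and 51.3% of the 39, beside 51.3% (24.6% higher and 26.8% lower). In M1 14 were called (10 higher and 4 lower), or 56.0% of the 25 and 35.9% of the 39, beside 36.2% (18.1% higher and 18.1% lower). The shares of all genes are over tested genes, so the share of the 25 is the like one to set beside them, and it was above in EM3, EM2, M2 and M1 and near it in EM1. Members that passed the filter only through a line where they are high add to that share, and nothing is read from it. The 5 comparisons share the E libraries. Leaving out single libraries moved the EM counts. For EM3 against E the count of 10 was 1, 4 and 3 without E replicate 1, 2 and 3, and 4, 3 and 6 without EM3 replicate 1, 2 and 3. For EM2 against E it was 4, 5 and 4 without E replicate 1, 2 and 3, and 5 and 6 without EM2 replicate 1 and 2. For EM1 against E the count of 5 was 2, 2 and 3 without E replicate 1, 2 and 3, and 1 and 3 without EM1 replicate 1 and 2. Fitted with a term for the library set, the count was 5 in EM3 and 6 in EM2.

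Between clones that do not share E, 12 members were called in M2 against M1 (8 higher and 4 lower in M2), beside 41.2% of all genes (19.0% higher and 22.2% lower). In EM2 against EM1 4 were called (1 higher and 3 lower in EM2), beside 8.14% (3.50% higher and 4.63% lower). In EM3 against EM1 0 were called by edgeR, 0 had an unadjusted p under 0.05, and 0 were called by DESeq2, limma-voom or limma-trend, beside 0.370% of all genes (0.172% higher and 0.199% lower). E against Parental gave 2 calls, HOXB7 and HOXC13, both higher in E, beside 10.9% (5.02% higher and 5.93% lower). Without any single library of E or of Parental that count was 1, the HOXC13 call.

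**Figure D3:**
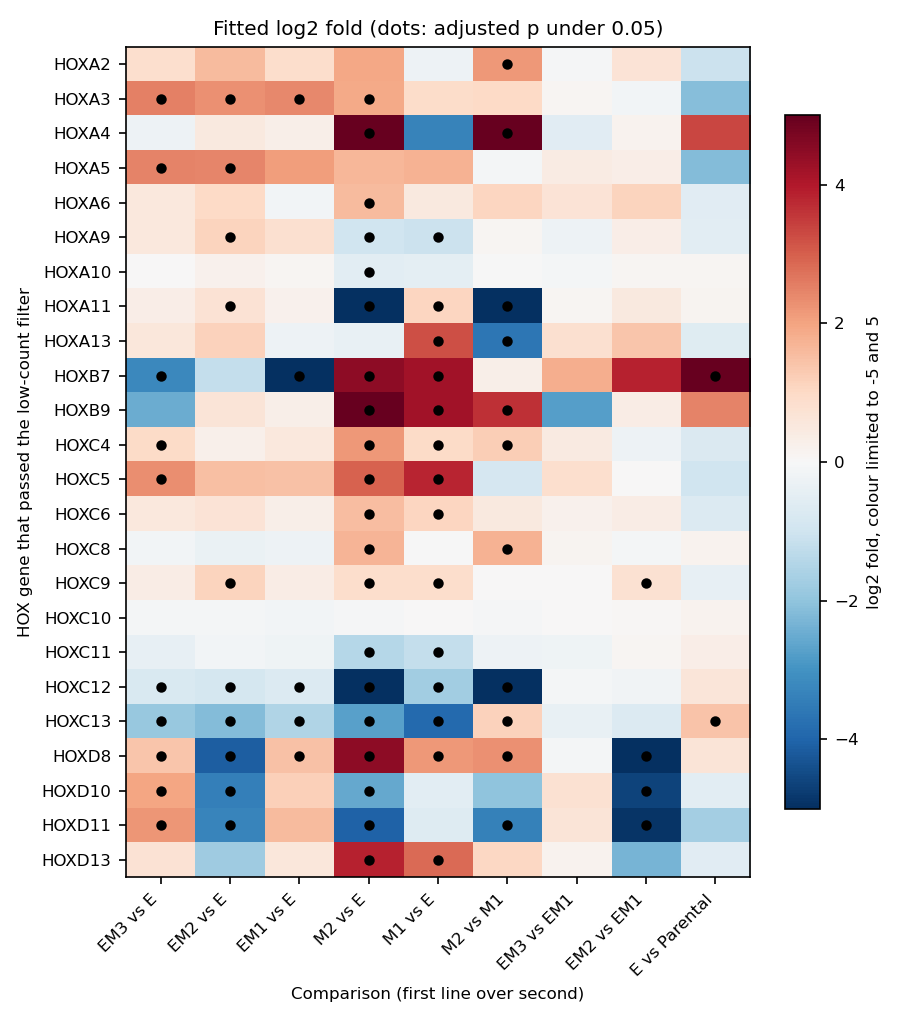
Fitted log2 fold (colour, first line over second, with the colour scale limited at both ends) of 24 of the 25 tested HOX genes in the 9 comparisons, with a dot where the adjusted p was under 0.05. HOXC12 and HOXC13 are blue with a dot in all 5 comparisons against E, HOXD8 is red in M2, M1, EM3 and EM1 and blue in EM2, and the EM3 against EM1 column has no dot. Folds of genes with 3 or fewer counts in a line depend on the model's prior count and are given in the text as count ratios.

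At the posterior end of the HOXC cluster, HOXC13, HOXC12 and HOXC11 were lower in both M clones than in E. HOXC13, which drives hair and nail keratin genes, was called lower in all 5 other clones than in E and higher in E than in Parental. HOXC13 had 11.3, 11.1 and 9.99 TPM in EM3, 10.8, 7.18 and 6.73 TPM in EM2 and 14.8, 14.2 and 11.5 TPM in EM1. M2 libraries held HOXC13 at 6.7, 4.28 and 5.81 TPM and M1 libraries at 2.51, 2.68 and 2.88 TPM, against 32.2, 29.9 and 27.1 TPM in E and 15.4, 8.06 and 15.2 TPM in Parental. All E libraries were above every library of every other line. The tests gave log2 fold -1.88, SE 0.27, adjusted p = 0.000101 in EM3, log2 fold -2.17, SE 0.27, adjusted p = 2.7e-05 in EM2 and log2 fold -1.49, SE 0.26, adjusted p = 0.000746 in EM1. Against E they gave log2 fold -2.71, SE 0.28, adjusted p = 1.88e-07 in M2 and log2 fold -3.87, SE 0.29, adjusted p = 1.2e-08 in M1. M2 in turn was above M1 (log2 fold 1.15, SE 0.26, adjusted p = 0.00175), and E above Parental (log2 fold 1.42, SE 0.26, adjusted p = 0.00251). Each of these HOXC13 calls held under every alternative run.

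HOXC12, a neighbour of HOXC13 that is also known from hair follicles in the mouse, was almost absent from M2. HOXC12 had 8.32, 9.31 and 5.78 TPM in EM3, 7.83, 8.83 and 4.21 TPM in EM2 and 8.84, 8.44 and 6.03 TPM in EM1. M2 libraries held HOXC12 at 0.01, 0 and 0 TPM and M1 libraries at 4.7, 4.03 and 3.25 TPM, against 10.9, 9.89 and 8.76 TPM in E and 6.31, 7.23 and 9.72 TPM in Parental. The M2 line held 1 count in all, against 1516 in M1 and 5628 in E. That is a ratio of 1360 to M1 (95% counting interval 244 to 53700) and of 4520 to E (810 to 178000), lower in M2. M1 libraries were all below those of E (log2 fold -1.73, SE 0.22, adjusted p = 7.57e-06). In the EM clones HOXC12 was called lower than in E, but the libraries overlapped. For EM3 the call was lost without E replicate 1 or 2 or EM3 replicate 1 or 3, with no low-count filter or by limma-trend on log2(TPM + 1) (adjusted p 0.0561 to 0.358). For EM2 it was lost without E replicate 1 or EM2 replicate 3 or by limma-trend on log2(TPM + 1) (adjusted p 0.0519 to 0.186), and for EM1 without E replicate 1, 2 or 3 or EM1 replicate 1, 2 or 3, with no low-count filter or by limma-trend on log2(TPM + 1) (adjusted p 0.0587 to 0.366).

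HOXC11, a posterior gene of the trunk and hind limb, was lower in both M clones than in E. HOXC11 had 6.11, 6.36 and 5.03 TPM in EM3, 7.27, 7.83 and 5.08 TPM in EM2 and 7.57, 6.09 and 5.35 TPM in EM1. M2 libraries held HOXC11 at 2.31, 1.68 and 3.03 TPM and M1 libraries at 3.67, 3.34 and 2.79 TPM, against 6.29, 5.48 and 5.07 TPM in E and 5.16, 5.05 and 6.06 TPM in Parental. No library of an M clone reached the lowest E library. The tests gave log2 fold -1.44, SE 0.24, adjusted p = 5.33e-05 in M2 and log2 fold -1.21, SE 0.23, adjusted p = 0.000542 in M1. HOXC10, a gene of lumbar segments, was the most abundant member in every library. HOXC10 had 38.4, 41.6 and 39.6 TPM in EM3, 38.9, 49.8 and 33.1 TPM in EM2 and 41.8, 39.6 and 38.6 TPM in EM1. M2 libraries held HOXC10 at 39.97, 32.7 and 36.9 TPM and M1 libraries at 59.1, 46.3 and 46.5 TPM, against 43.9, 35.5 and 31.6 TPM in E and 38.2, 38.7 and 30.4 TPM in Parental. It was called in none of the 9 comparisons, and its adjusted p for any difference among lines was 0.963. That does not show equal levels.

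The central and anterior genes HOXC9, HOXC6, HOXC5 and HOXC4 were higher in both M clones than in E, and HOXC8 in M2. HOXC9 patterns the thoracic trunk. HOXC9 had 4.67, 5.78 and 4.06 TPM in EM3, 7.62, 10.3 and 6.49 TPM in EM2 and 5.08, 4.83 and 4.82 TPM in EM1. M2 libraries held HOXC9 at 6.99, 6.24 and 6.35 TPM and M1 libraries at 6.64, 8.1 and 7.68 TPM, against 3, 2.84 and 2.44 TPM in E and 3.65, 5.06 and 6.47 TPM in Parental. All E libraries were below every library of every other line. The difference from E was called in EM2, M2 and M1 and not in EM3, EM1 or Parental. The tests gave log2 fold 1.13, SE 0.23, adjusted p = 0.00278 in EM2. They gave log2 fold 0.89, SE 0.23, adjusted p = 0.00345 in M2 and log2 fold 0.89, SE 0.23, adjusted p = 0.00546 in M1. The effective length of HOXC9, which TPM divides by and the test does not, was 495 to 767 bases across libraries, so its TPM also vary with that length. The EM2 call was lost with no low-count filter (adjusted p 0.085, range over all alternatives 2.57e-06 to 0.085), the M2 call with no low-count filter (adjusted p 0.124, range over all alternatives 7.33e-05 to 0.124) and the M1 call with no low-count filter (adjusted p 0.174, range over all alternatives 0.000123 to 0.174). EM2 was also above EM1 (log2 fold 0.77, SE 0.23, adjusted p = 0.045), a call lost without EM1 replicate 1, 2 or 3 or EM2 replicate 1, 2 or 3, with no low-count filter, by limma-trend on log2(TPM + 1) or with the compared lines only (adjusted p 0.0641 to 0.42).

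HOXC8, also a thoracic gene, was raised in M2 and not called in M1. HOXC8 had 2.43, 1.94 and 2.03 TPM in EM3, 1.76, 1.71 and 1.61 TPM in EM2 and 1.7, 2.03 and 1.81 TPM in EM1. M2 libraries held HOXC8 at 5.46, 7.37 and 8.03 TPM and M1 libraries at 1.77, 2.53 and 2.41 TPM, against 1.77, 1.77 and 1.67 TPM in E and 2.1, 1.53 and 1.57 TPM in Parental. The 3 M2 libraries were above every other library. The tests gave log2 fold 1.71, SE 0.29, adjusted p = 7.49e-05 against E and log2 fold 1.74, SE 0.29, adjusted p = 8.56e-05 against M1. HOXC6, known from the mammary gland of the mouse, was higher in M2 than in E. HOXC6 had 3.99, 9.64 and 2.72 TPM in EM3, 4.67, 9.03 and 2.48 TPM in EM2 and 5.98, 3.65 and 2.92 TPM in EM1. M2 libraries held HOXC6 at 12.04, 11.02 and 5.56 TPM and M1 libraries at 10.4, 5.29 and 3.86 TPM, against 3.24, 2.22 and 2.57 TPM in E and 2.75, 5.99 and 8.36 TPM in Parental. M2 and M1 libraries were above those of E (log2 fold 1.55, SE 0.39, adjusted p = 0.00263 in M2; log2 fold 1.06, SE 0.38, adjusted p = 0.0382 in M1), while EM3, EM2, EM1 and Parental each had at least 1 library inside the range of the M2 or M1 libraries. The M1 call was lost without E replicate 1, 2 or 3 or M1 replicate 1 or 2, with no low-count filter, by limma-trend on log2(TPM + 1) or with the library set as a term (adjusted p 0.05 to 0.166).

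HOXC5 and HOXC4 mark cervical and upper trunk levels in the embryo. HOXC5 had 0.81, 0.11 and 0.71 TPM in EM3, 0.39, 0.45 and 0.09 TPM in EM2 and 0.24, 0.16 and 0.45 TPM in EM1. M2 libraries held HOXC5 at 0.78, 0.70 and 0.87 TPM and M1 libraries at 1.76, 1.35 and 1.53 TPM, against 0.04, 0.11 and 0.10 TPM in E and 0.10, 0.20 and 0.29 TPM in Parental. Both M clones were above E for HOXC5 (log2 fold 2.94, SE 0.68, adjusted p = 0.00138 in M2; log2 fold 3.80, SE 0.69, adjusted p = 0.000304 in M1). HOXC5 was also called higher in EM3, with 1 library inside the E range, and that call was lost without E replicate 1 or 3 or EM3 replicate 1 or 3 or by limma-voom (adjusted p 0.0613 to 0.106). HOXC5 did not pass the low-count filter through E, so it was tested because other lines are high. HOXC4 had 5.52, 5.74 and 3.42 TPM in EM3, 2.56, 3.98 and 1.86 TPM in EM2 and 4.78, 2.71 and 2.1 TPM in EM1. M2 libraries held HOXC4 at 10.6, 12.6 and 7.94 TPM and M1 libraries at 6.08, 4.52 and 3.28 TPM, against 1.61, 2.13 and 1.73 TPM in E and 2.49, 4.03 and 3.63 TPM in Parental. M2 libraries were above those of E and of M1 (log2 fold 2.18, SE 0.29, adjusted p = 5.59e-06 against E; log2 fold 1.24, SE 0.28, adjusted p = 0.00168 against M1). The smaller differences from E in M1 (log2 fold 0.95, SE 0.28, adjusted p = 0.0137) and EM3 (log2 fold 0.97, SE 0.28, adjusted p = 0.0242) were called, the M1 call lost without E replicate 1 or M1 replicate 1 or with no low-count filter (adjusted p 0.06 to 0.0866) and the EM3 call without E replicate 1 or 3 or EM3 replicate 1 or 2, with no low-count filter or with the library set as a term (adjusted p 0.0644 to 0.113).

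**Figure D4:**
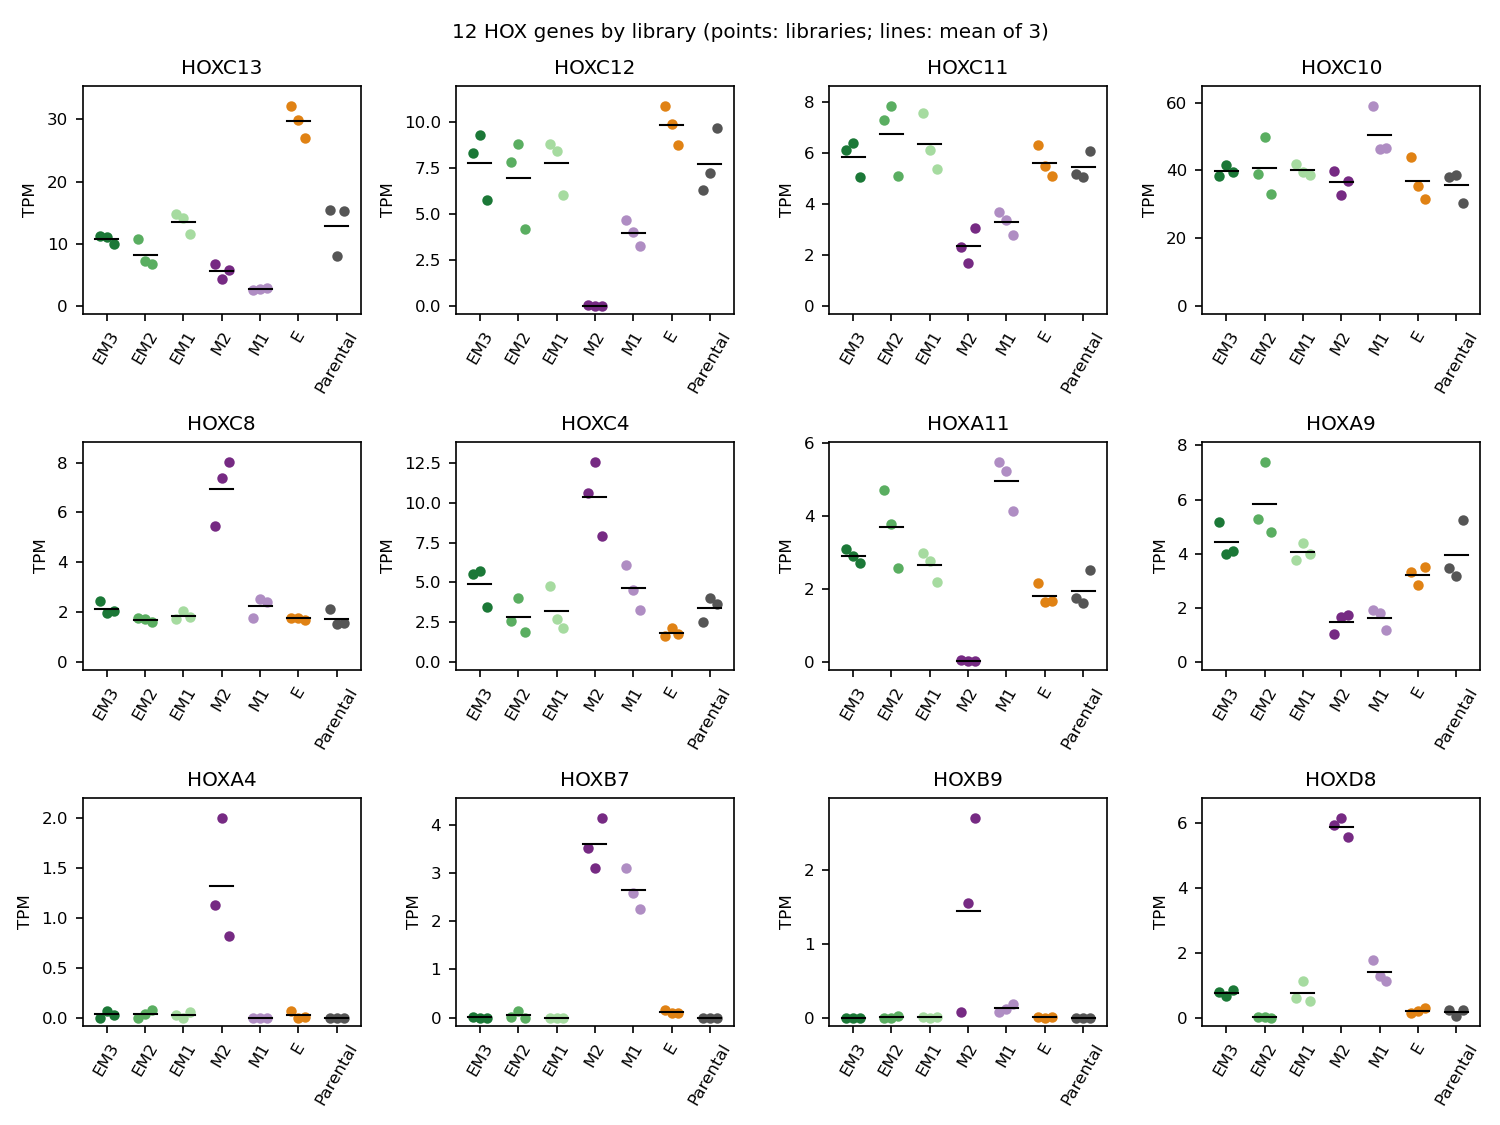
TPM of 12 HOX genes in each library (points, 3 per line) with the mean of each line (bars), each panel on its own linear axis that reaches 0. E stands highest for HOXC13, M2 stands near 0 for HOXC12 and HOXA11 and highest for HOXC8, HOXC4, HOXA4 and HOXD8, and HOXB9 differs widely between the 3 M2 libraries.

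In the HOXA cluster HOXA11 stood apart in both M clones. It shapes the forearm, lower leg and uterus. HOXA11 had 3.09, 2.9 and 2.71 TPM in EM3, 4.71, 3.79 and 2.58 TPM in EM2 and 2.99, 2.78 and 2.19 TPM in EM1. M2 libraries held HOXA11 at 0.04, 0.02 and 0.03 TPM and M1 libraries at 5.49, 5.23 and 4.14 TPM, against 2.15, 1.64 and 1.66 TPM in E and 1.74, 1.6 and 2.51 TPM in Parental. M2 was near 0 and M1 was above all other lines except 1 EM2 library, so the 2 M clones moved in opposite directions from E. The tests gave log2 fold -6.15, SE 0.31, adjusted p = 1.67e-11 for M2 and log2 fold 1.07, SE 0.22, adjusted p = 0.000796 for M1. M2 against M1 gave log2 fold -7.23, SE 0.31, adjusted p = 4.47e-12. EM2 was called higher than E (log2 fold 0.71, SE 0.22, adjusted p = 0.035), a call lost without E replicate 2 or 3 or EM2 replicate 1 or 2, with no low-count filter, with the compared lines only or with the library set as a term (adjusted p 0.0513 to 0.408).

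HOXA10 and HOXA9, genes of the uterus and of blood progenitors, were expressed in every line. HOXA10 had 11.4, 12.6 and 11.7 TPM in EM3, 16.6, 14.7 and 10.6 TPM in EM2 and 10.8, 13.3 and 10.2 TPM in EM1. M2 libraries held HOXA10 at 8.56, 6.54 and 9.73 TPM and M1 libraries at 9.06, 8.35 and 7.34 TPM, against 11.2, 10.7 and 9.76 TPM in E and 11.6, 10.03 and 10.3 TPM in Parental. M2 libraries were just below those of E (log2 fold -0.52, SE 0.20, adjusted p = 0.0392), a call lost without E replicate 1, 2 or 3 or M2 replicate 1 or 2, with no low-count filter, by limma-trend on log2(TPM + 1) or with the compared lines only (adjusted p 0.0624 to 0.245). HOXA9 had 5.16, 3.98 and 4.1 TPM in EM3, 5.28, 7.39 and 4.79 TPM in EM2 and 3.76, 4.38 and 3.98 TPM in EM1. M2 libraries held HOXA9 at 1.01, 1.64 and 1.72 TPM and M1 libraries at 1.9, 1.79 and 1.16 TPM, against 3.31, 2.83 and 3.52 TPM in E and 3.46, 3.16 and 5.23 TPM in Parental. Both M clones were below E and EM2 was above it. EM3 and EM1 libraries also all lay above those of E, but HOXA9 was not called there. The effective length of HOXA9, which the test does not divide by, was 452 to 1219 bases across libraries, so its TPM also vary with that length. The tests gave log2 fold -1, SE 0.36, adjusted p = 0.0268 for M2, log2 fold -1.07, SE 0.36, adjusted p = 0.0254 for M1 and log2 fold 1.12, SE 0.35, adjusted p = 0.0391 for EM2. The M2 call was lost without E replicate 1 or 3 or M2 replicate 1 or 3 or with no low-count filter (adjusted p 0.0545 to 0.0917), the M1 call without E replicate 1, 2 or 3 or M1 replicate 1 or 3 or with no low-count filter (adjusted p 0.0521 to 0.101) and the EM2 call without E replicate 1, 2 or 3 or EM2 replicate 1 or 2, with no low-count filter or with the library set as a term (adjusted p 0.0886 to 0.165).

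HOXA5 is known from the lung and as a gene often silenced in breast tumours, and HOXA3 from the thymus and parathyroid. HOXA5 had 5.72, 5.06 and 1.49 TPM in EM3, 1.74, 9.79 and 0.83 TPM in EM2 and 6.73, 0.85 and 1.97 TPM in EM1. M2 libraries held HOXA5 at 2.78, 0.44 and 2.43 TPM and M1 libraries at 4.42, 3.59 and 2.09 TPM, against 0.17, 1.26 and 0.98 TPM in E and 1.19, 4.17 and 4.45 TPM in Parental. The effective length of HOXA5 was 120 to 1358 bases and that of HOXA3 1087 to 2465 bases across libraries, so their TPM also vary with the transcript the authors' counting assigned. EM3 libraries were above those of E for HOXA5 (log2 fold 2.49, SE 0.74, adjusted p = 0.0269), and the call was lost without E replicate 1 or 3 or EM3 replicate 2, by limma-trend on log2(TPM + 1) or with the library set as a term (adjusted p 0.0883 to 0.194). EM2 was called higher with overlapping libraries, and that call was lost without E replicate 1, 2 or 3 or EM2 replicate 1 or 2, by limma-trend on log2(TPM + 1) or with the library set as a term (adjusted p 0.053 to 0.266).

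HOXA3 had 1.95, 5.8 and 1.03 TPM in EM3, 1.92, 3.81 and 0.60 TPM in EM2 and 5.23, 1.43 and 0.56 TPM in EM1. M2 libraries held HOXA3 at 1.83, 3.03 and 1.08 TPM and M1 libraries at 1.28, 1 and 0.22 TPM, against 0.68, 0.27 and 0.50 TPM in E and 1.58, 2.05 and 3.12 TPM in Parental. EM3 and M2 libraries lay above E for HOXA3 (log2 fold 2.50, SE 0.74, adjusted p = 0.0257 in EM3; log2 fold 1.90, SE 0.73, adjusted p = 0.0369 in M2), while EM2 and EM1 libraries overlapped it and were also called higher. The EM3 call was lost without E replicate 1, 2 or 3 or EM3 replicate 2, by limma-voom, by limma-trend on log2(TPM + 1) or with the library set as a term (adjusted p 0.0519 to 0.161), and the M2 call without E replicate 1, 2 or 3 or M2 replicate 2, by limma-voom, by limma-trend on log2(TPM + 1) or with the library set as a term (adjusted p 0.0574 to 0.157). For EM2 it was lost without E replicate 1, 2 or 3 or EM2 replicate 1 or 2, by limma-voom, by limma-trend on log2(TPM + 1) or with the library set as a term (adjusted p 0.0695 to 0.293). For EM1 it was lost without E replicate 1, 2 or 3 or EM1 replicate 1, by limma-voom, by limma-trend on log2(TPM + 1) or with the library set as a term (adjusted p 0.0723 to 0.243).

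HOXA4, an anterior gene of the neck and upper trunk, was expressed in M2 only. HOXA4 had 0, 0.07 and 0.03 TPM in EM3, 0, 0.04 and 0.08 TPM in EM2 and 0.03, 0 and 0.06 TPM in EM1. M2 libraries held HOXA4 at 1.13, 2 and 0.82 TPM, against 0.07, 0 and 0.01 TPM in E, and M1 and Parental had no count. M2 held 137 counts, which with a floor of 3 counts over the M1 line is at least 50.9-fold higher in M2 than in M1. Against E the test gave log2 fold 5.33, SE 0.93, adjusted p = 0.000253. HOXA4 passed the low-count filter through M2 alone, so that p is not separate evidence that M2 is higher. HOXA2, HOXA6, HOXA7 and HOXA13 stayed below 1 TPM on average, with single libraries at 0.01 to 0.48, 0.07 to 0.58, 0 to 0.40 and 0 to 0.57 TPM. HOXA13, a gene of the hand, foot and genital tract, was highest in M1, at 0.57, 0.23 and 0.14 TPM.

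HOXB7, which promotes invasive growth when added to breast cells, and its neighbour HOXB9 were the HOXB genes above 1 TPM. HOXB7 had 0.02, 0 and 0 TPM in EM3, 0.02, 0.14 and 0 TPM in EM2 and 0, 0 and 0 TPM in EM1. M2 libraries held HOXB7 at 3.52, 3.11 and 4.14 TPM and M1 libraries at 3.11, 2.58 and 2.26 TPM, against 0.15, 0.09 and 0.10 TPM in E and 0, 0 and 0 TPM in Parental. Every M2 and M1 library was above every library of the other lines. The tests gave log2 fold 4.46, SE 0.65, adjusted p = 4.92e-05 in M2 and log2 fold 4.18, SE 0.65, adjusted p = 0.000165 in M1. HOXB7 passed the low-count filter through M2 and M1 alone, so these p-values are not separate evidence that M2 and M1 are higher. The E line held 14 counts of HOXB7, against 0 in EM1 and 0 in Parental, which gives at least 3.61-fold lower in EM1 than in E and at least 3.09-fold higher in E than in Parental. EM3 held 1 count, a ratio of 12.8 below E (95% counting interval 1.95 to 541). The call for EM3 was lost without E replicate 1, 2 or 3 or EM3 replicate 2 or 3 (adjusted p 0.0707 to 0.134), for EM1 without EM1 replicate 1 (adjusted p 0.0544, range over all alternatives 0.003 to 0.0544), and for E against Parental without E replicate 1, 2 or 3 or Parental replicate 1, 2 or 3 (adjusted p 0.0592 to 0.0881).

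HOXB9 varied within M2. HOXB9 had 0, 0 and 0 TPM in EM3, 0, 0 and 0.02 TPM in EM2 and 0.01, 0 and 0.01 TPM in EM1. M2 libraries held HOXB9 at 0.08, 1.55 and 2.7 TPM and M1 libraries at 0.07, 0.12 and 0.19 TPM, against 0.01, 0 and 0.01 TPM in E and 0, 0 and 0 TPM in Parental. M2 replicate 1 lay inside the M1 range, and the other 2 M2 libraries were above every other library. M2 held 483 counts and M1 40, against 2 in E, which are ratios of 301 (95% counting interval 82.8 to 2490) and 22.3 (5.79 to 191) above E. HOXB9, like HOXB7, passed the filter through M2 and M1 alone. The call in M1 was lost without E replicate 1, 2 or 3 or M1 replicate 3 or by limma-voom (adjusted p 0.0671 to 0.0962). M2 against M1 was called with overlapping libraries, and the call was lost without M2 replicate 3 or by limma-voom (adjusted p 0.0584 to 0.0649). HOXB8, HOXB3 and HOXB13 did not pass the filter and reached 0.09, 0.03 and 0.05 TPM at most. HOXB6, also not tested, had 0.19, 0.48 and 0.65 TPM in M2, at most 0.03 TPM in M1 and 0 in all libraries of the other lines. Its 42 counts in M2 are at least 17.4-fold above E.

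HOXD8 was the HOXD gene above 1 TPM, highest in M2 and almost absent from EM2. HOXD8 had 0.78, 0.68 and 0.85 TPM in EM3, 0.02, 0.03 and 0 TPM in EM2 and 0.60, 1.14 and 0.51 TPM in EM1. M2 libraries held HOXD8 at 5.96, 6.17 and 5.58 TPM and M1 libraries at 1.79, 1.28 and 1.12 TPM, against 0.14, 0.22 and 0.30 TPM in E and 0.24, 0.05 and 0.24 TPM in Parental. M2 libraries lay above those of M1, and M1 libraries above those of E. The tests gave log2 fold 4.47, SE 0.48, adjusted p = 3.81e-07 for M2 against E, log2 fold 2.17, SE 0.45, adjusted p = 0.000929 for M1 against E and log2 fold 2.30, SE 0.43, adjusted p = 0.000276 for M2 against M1. EM3 and EM1 libraries were also above those of E (log2 fold 1.37, SE 0.44, adjusted p = 0.0406 in EM3; log2 fold 1.48, SE 0.45, adjusted p = 0.0283 in EM1). The EM3 call was lost without E replicate 1 or 2 or EM3 replicate 1, 2 or 3 or with no low-count filter (adjusted p 0.0582 to 0.167), and the EM1 call without E replicate 1 or 2 or EM1 replicate 1 or 2, with no low-count filter or with the compared lines only (adjusted p 0.0565 to 0.137).

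EM2 held 2 counts of HOXD8, against 97 in EM1 and 47 in E, which are ratios of 55.2 (95% counting interval 14.9 to 462) below EM1 and 20.7 (5.42 to 176) below E. EM2 libraries lay below all of EM1 and of E, but the call against E was lost by limma-trend on log2(TPM + 1) (adjusted p 0.303, range over all alternatives 9.84e-06 to 0.303). HOXD10, which helps keep breast epithelial cells quiet and polarised, and HOXD11, a gene of the forearm and kidney, were under 1 TPM on average in every line. HOXD10 ranged over 0 to 0.55 TPM and HOXD11 over 0 to 1.12 TPM in single libraries. In EM2 HOXD10 had 1 count against 29 in EM1, a ratio of 33.0 (5.47 to 1350), and HOXD11 had 2 counts against 62, a ratio of 35.3 (9.36 to 298). M2 was as low, with 2 counts of HOXD10 and 1 of HOXD11, and both were called lower in M2 than in E. The HOXD11 call in M2 held under every alternative that tested it. That of HOXD10 was lost without E replicate 1 or M2 replicate 1 or 2, with no low-count filter or by DESeq2 (adjusted p 0.0648 to 0.112). HOXD8, HOXD10 and HOXD11 were called lower in EM2 than in EM1 under every alternative that tested them. These were 15 for HOXD8, 12 for HOXD10 and 13 for HOXD11, because some settings left out the genes of low counts. None of these genes passed the filter through EM2, so they were tested because other lines are high. HAGLR, a noncoding RNA antisense to HOXD1 and HOXD3 that does not overlap HOXD8, HOXD10 or HOXD11, was also lower in EM2. It was 0.0267 ± 0.0289 TPM in EM2 and 1.08 ± 0.535 TPM in EM1 (log2 fold -5.03, SE 0.48, adjusted p = 1.72e-06). Flanking genes of the cluster stayed high there, with MTX2 at 62.4 ± 4.02 TPM in EM2 and 66.5 ± 5.93 TPM in EM1 and LNPK at 28.1 ± 13.6 TPM in EM2 and 32.4 ± 8.63 TPM in EM1. HOXD13, a gene of the digits, was highest in M2 at 0.45, 0.28 and 0.50 TPM, and HOXD1, HOXD3, HOXD9 and HOXD12 stayed at or below 0.11 TPM in every library.

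Over the 39 members together M2 stood far from the other lines. The distance between 2 libraries was taken as the root mean square difference of log2(TPM + 1) over the members. M2 libraries were 0.75 to 0.89 from M1, 0.90 to 1.17 from the EM clones, 1.05 to 1.18 from E and 0.91 to 1.09 from Parental, while libraries of 1 line differed by a median of 0.19 to 0.45. EM3 and EM1 libraries were a median of 0.35 apart, inside the spread within those lines, and EM2 and EM1 libraries also 0.35. M1 was a median of 0.78 from E and 0.63 to 0.67 from the EM clones. All 3 libraries of M2, M1 and E had a library of their own line as the nearest. Over all lines 10 of 21 libraries did, and 11 of 21 on CPM, which is not scaled by length, in place of TPM. Libraries of EM3, EM2, EM1 and Parental were interleaved, with 1 of those 12 nearest to its own line on TPM.

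Antisense and noncoding RNAs of the clusters are given beside the coding genes they overlap or adjoin. For this and the following lists, the share of all genes called in each comparison is as given for the HOX genes. Of 18 listed RNAs 11 were tested, and against E 1 rose and 1 fell in EM3, 2 and 2 in EM2, 1 and 3 in EM1, 1 and 6 in M2 and 2 and 2 in M1. Their median log2 fold against E was -0.90 in M2 and -0.18 in M1, beside 0.01 and 0.03 over all genes tested. HOXC13-AS was lower than in E in all 5 clones and higher in E than in Parental, like HOXC13. It averaged 2.69 ± 0.187 TPM in EM3, 3.06 ± 0.570 in EM2, 3.50 ± 0.401 in EM1, 1.38 ± 0.381 in M2, 0.790 ± 0.135 in M1, 9.29 ± 0.559 in E and 3.57 ± 0.808 in Parental. The test of M1 against E gave log2 fold -3.97, SE 0.32, adjusted p = 2.78e-08, and the HOXC13-AS calls held under every alternative. HOXA11-AS, like HOXA11, was lower in M2 than in M1, with 0.0767 ± 0.133 TPM in M2 and 3.4 ± 1.27 TPM in M1 (log2 fold -6.15, SE 0.81, adjusted p = 6.33e-06). HOTAIRM1, a noncoding RNA of the anterior HOXA cluster, was 17 ± 5.11 TPM in M2 and 4.71 ± 1.01 TPM in E (log2 fold 1.63, SE 0.39, adjusted p = 0.00181). HOXC-AS3, which overlaps HOXC10, was 1.53 ± 0.25 TPM in M2 and 12.4 ± 2.42 TPM in E (log2 fold -3.76, SE 0.44, adjusted p = 1.26e-06), although HOXC10 itself was not called. HOXA10-AS, which overlaps HOXA9 and HOXA10, was 0.437 ± 0.0231 TPM in M1 and 3.92 ± 0.154 TPM in E (log2 fold -3.56, SE 0.34, adjusted p = 2.37e-07). HOXA9 was also called lower in M1 than in E, and HOXA10 was not called there. HOTAIR, a noncoding RNA that overlaps HOXC11 and binds Polycomb proteins, was 0.433 ± 0.146 TPM in M2 and 1.6 ± 0.411 TPM in E (log2 fold -2.05, SE 0.52, adjusted p = 0.00317), a call lost by limma-trend on log2(TPM + 1). HOXC11 was also called lower in M2 than in E. Without strand information, reads of these pairs cannot be told apart where the genes overlap.

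HOX proteins bind DNA with TALE homeodomain partners of the PBX, MEIS and PKNOX families, which raise their specificity. All 9 listed were tested. PKNOX2 was 179 ± 29.4 TPM in M2 and 0.177 ± 0.085 TPM in E (log2 fold 10.34, SE 0.61, adjusted p = 5.8e-10), with 153.6 to 211.2 TPM in the M2 libraries and at most 0.24 TPM in any other library. PBX3 was called higher than in E in EM3, EM1, M2 and M1, and averaged 14.6 ± 2.22 TPM in EM3, 14.9 ± 1.32 in EM1, 10.8 ± 1.20 in M2, 11.1 ± 3.95 in M1 and 5.37 ± 0.447 in E. MEIS1 was 22.1 ± 12.7 TPM in M1 and 5.58 ± 0.945 TPM in E (log2 fold 1.72, SE 0.49, adjusted p = 0.011), a call lost without M1 replicate 3. Over the list 1 rose and 1 fell against E in EM3, 1 and 1 in EM2, 1 and 2 in EM1, 3 and 2 in M2, and 4 and 2 in M1. Its median log2 fold against E was 0.55 in M2 and 0.91 in M1.

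**Figure D5:**
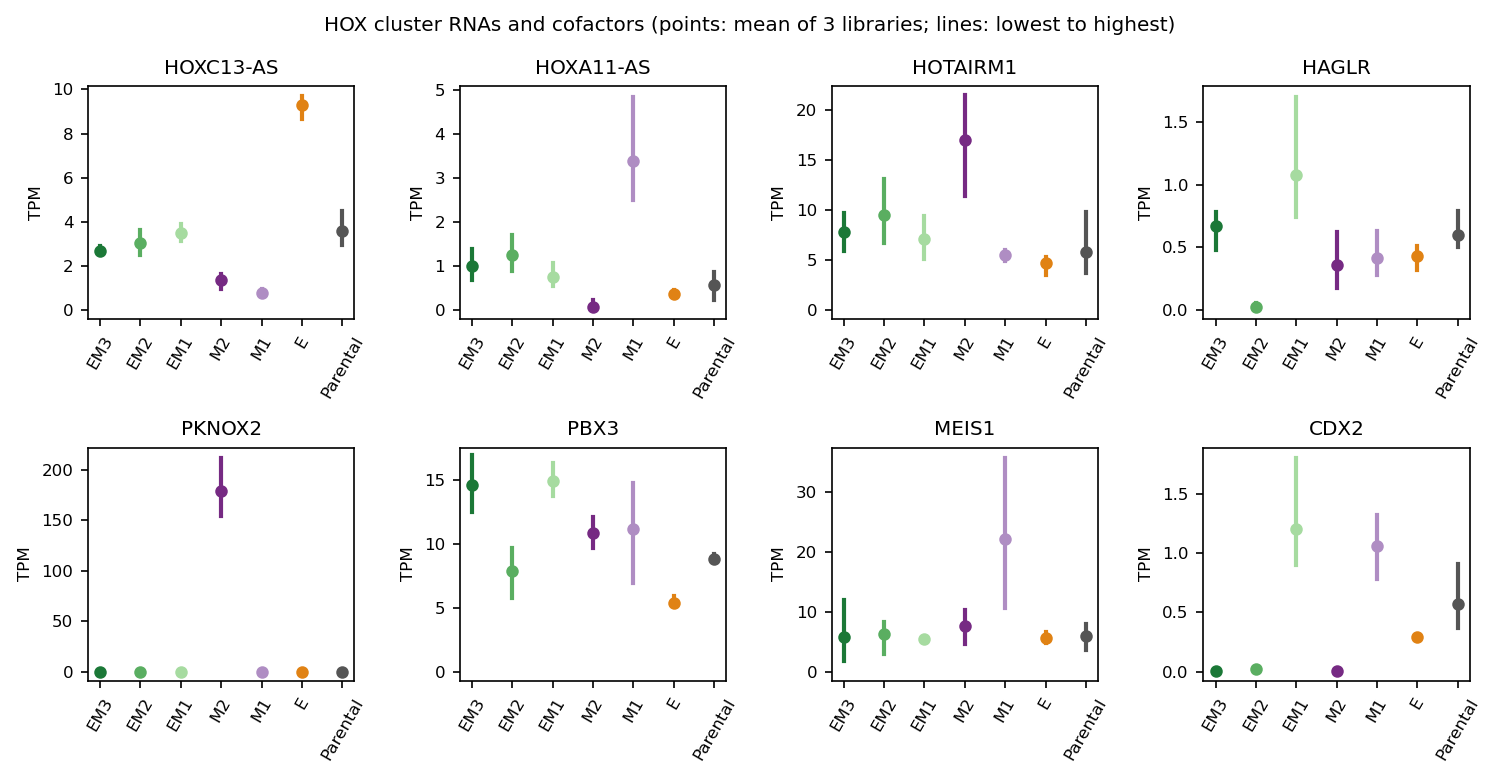
Mean TPM (points) with the lowest and highest of 3 libraries (lines) for 4 noncoding RNAs of the HOX clusters (top) and for 3 cofactors and CDX2 (bottom), by line. PKNOX2 leaves 0 visibly in M2 alone, HOXA11-AS is highest in M1, HAGLR is near 0 in EM2, PBX3 is lowest on average in E, and CDX2 is highest in EM1 and M1.

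CDX2, a ParaHox gene that activates central and posterior HOX genes in the embryo and intestine, differed between EM3 and EM1, where no HOX gene was called. It averaged 0.00667 ± 0.00577 TPM in EM3, 0.0200 ± 0.0173 in EM2, 1.20 ± 0.517 in EM1, 0.00333 ± 0.00577 in M2, 1.06 ± 0.271 in M1, 0.290 ± 0.0100 in E and 0.570 ± 0.296 in Parental. EM3 held 2 counts against 237 in EM1, a ratio of 140 (95% counting interval 38.3 to 1160) lower in EM3, but the call was lost with the compared lines only. EM2 was below EM1 (log2 fold -5.62, SE 0.51, adjusted p = 8.09e-07). M2 held 1 count against 232 in M1, a ratio of 208 (37.0 to 8250) lower in M2. Of the 8 ParaHox and even-skipped genes listed, 2 were tested, CDX2 and PDX1. PDX1 fell against E in EM3, M2 and M1.

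Of 28 Polycomb and Trithorax genes, all tested, 3 rose and none fell against E in EM3, 3 rose and 1 fell in EM2, 5 rose and none fell in EM1, 13 rose and 5 fell in M2, and 5 rose and 3 fell in M1. Their median log2 fold was 0.47 in M2 and 0.18 in M1. BMI1, a core Polycomb subunit, was 98.8 ± 31.4 TPM in M1 and 21.2 ± 3.58 TPM in E (log2 fold 2.26, SE 0.43, adjusted p = 0.000443). CBX6, a Polycomb reader, was 27.8 ± 9.51 TPM in M2 and 3.7 ± 0.323 TPM in E (log2 fold 2.64, SE 0.30, adjusted p = 8.04e-07). KMT2A, the MLL protein that keeps HOX genes active, was called higher than in E in all 5 other clones, for example 18.3 ± 6.01 TPM in EM3 and 7.66 ± 0.62 TPM in E (log2 fold 1.08, SE 0.26, adjusted p = 0.00749). In M2 it was 18.1 ± 2.94 TPM in M2 and 7.66 ± 0.62 TPM in E (log2 fold 1.37, SE 0.26, adjusted p = 0.000267) and in M1 the test gave log2 fold 0.70, SE 0.26, adjusted p = 0.0431. The EM2 call was lost without EM2 replicate 2, and the alternatives were not tallied for the M2 and M1 calls. E was also below Parental for KMT2A, which was 17.9 ± 3.84 TPM in Parental (log2 fold -0.98, SE 0.26, adjusted p = 0.0225). That call was lost without E replicate 2 or 3 or Parental replicate 2 or 3. JARID2, which recruits Polycomb, was 3.42 ± 0.694 TPM in M2 and 14.5 ± 2.21 TPM in E (log2 fold -2.35, SE 0.70, adjusted p = 0.00939).

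Retinoic acid switches on anterior HOX genes, and 12 of 17 listed genes of its synthesis, binding and breakdown were tested. Against E 1 rose and 2 fell in EM3, 2 rose and 1 fell in EM2, 1 rose and 2 fell in EM1, 3 rose and 7 fell in M2, and 3 rose and 7 fell in M1. Their median log2 fold was -1.93 in M2 and -1.76 in M1. ALDH1A3, which makes retinoic acid, was 0.17 ± 0.115 TPM in M2 and 415 ± 23.8 TPM in E (log2 fold -11.40, SE 1.00, adjusted p = 2.92e-08). STRA6, a retinol uptake receptor, was 0.0133 ± 0.0153 TPM in M2 and 15.3 ± 1.93 TPM in E (adjusted p = 7.21e-08), and 61 ± 11.8 TPM in M1. M2 held 3 counts of it, a ratio of 1500 below E (95% counting interval 513 to 7280) and of 4260 below M1 (1460 to 20700). ALDH1A1, a related enzyme, was 23.9 ± 25.6 TPM in M2 and 0.63 ± 0.14 TPM in E (log2 fold 4.22, SE 0.59, adjusted p = 1.06e-05), with 3 M2 libraries that differ widely.

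Genes flanking the clusters lie next to the HOX genes but outside them. Of 18 listed 14 were tested. Against E 7 rose and 2 fell in M2, 3 rose and 1 fell in M1, 1 fell in EM3 and 1 fell in EM1. Their median log2 fold was 0.85 in M2 and 0.07 in M1. In EM2 none was called against E, with 4 at an unadjusted p under 0.05, and none against EM1, with 0 at an unadjusted p under 0.05, and DESeq2, limma-voom and limma-trend called 0 in both. HIBADH, a metabolic enzyme beside the HOXA cluster, was 91 ± 50.6 TPM in M2 and 18.4 ± 0.86 TPM in E (log2 fold 1.89, SE 0.24, adjusted p = 3.97e-06). SKAP2, on the other side of the HOXA cluster, was 29.2 ± 7.02 TPM in M2 and 11.3 ± 2.8 TPM in M1 (log2 fold 1.24, SE 0.34, adjusted p = 0.00714).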

How the data were processed

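Each of the 21 libraries came with 1 gene table. Per the submitters' processing notes, bcl2fastq 2.20.0.422, cutadapt 2.4, STAR 2.7.2b, RSEM 1.3.2 and the build hg38 were used. The deposited expected counts are RSEM estimates of reads per gene, and 7.4 to 8.6% of the non-zero values are not whole. The deposited TPM are scaled per library by the effective length that the authors' tables also list. The annotation release and the strand setting are not given in the sources used here. Of 60617 gene IDs, 60261 matched a symbol and 58542 a GENCODE 29 gene, from which positions and overlaps were taken.

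Expected counts were rounded, genes were kept by the edgeR filter (minimum count 10) and TMM factors were computed, which left 18632 genes, a common biological coefficient of variation of 0.344 and 14 residual degrees of freedom. All 7 lines entered a single quasi-likelihood fit (R 4.3.3, edgeR 4.0.16, limma 3.58.1), with 9 comparisons and Benjamini-Hochberg adjustment over all genes at 0.05. DESeq2 1.42.0 Wald tests, DESeq2 size factors, limma-voom, limma-trend on log2(TPM + 1), no filter, a mean of at least 1 CPM, the compared lines only, the library set or the replicate number as a term, and leaving out each library were alternatives. Tables used Python 3.11.15 with scipy 1.17.1, numpy 2.4.6 and pandas 2.3.3, and plots matplotlib 3.10.9. Count ratios use totals over the 3 libraries of a line, a floor of 3 counts where a line had 0, and exact 95% intervals that cover counting error only. In simulated data made from the M2 and E libraries (16978 genes), recovery was 16.4% of 67 genes for a 2-fold change, 70.1% of 67 for 4-fold and 97.0% of 66 for 8-fold, and 13 of 16778 unchanged genes were called. The changes were placed only on genes with a mean of at least 1 CPM, and the fit held the M2 and E libraries alone. Those rates therefore do not carry over to HOX genes of lower counts or to the fit of all 7 lines.

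The members and lists were chosen with earlier results of these data known. HOX genes with a mean of at least 1 TPM in a line are described by library, the others by their range. 1 member and some results on other genes are not reported here, although the counts and sums include them. Genes of the other lists are named where they were called, their libraries did not overlap and 1 of the lines compared reached 1 TPM, up to 4 per list and comparison. PBX3 in M1 and KMT2A in M2 and M1 fall outside that limit and were added after their values were seen. Also named outside the rule are PDX1, which stayed under 1 TPM, and MTX2 and LNPK in EM2 and EM1, which were not called there. The sources do not say whether replicate libraries stem from separate cultures. A p-value here therefore covers only how far those 3 libraries differ, which may be technical. Replicate numbers were not taken as pairs, because in no comparison did all 3 same-numbered pairs correlate above 0.1.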

Additional observations from a re-analysis of the deposited data

How the results depend on the processing

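Of 77 calls of HOX genes over the 9 comparisons, 38 held under every alternative that tested the gene, and 0 changed direction. Genes of low counts were not tested under all alternatives. With the filter at a mean of 1 CPM, 49 calls held and the others were not tested. Calls lost numbered 20 with no low-count filter, 13 by limma-trend on log2(TPM + 1), 12 with the library set as a term, 8 by limma-voom, 5 with the compared lines only, 2 by DESeq2 and 2 with DESeq2 size factors. Counts of called HOX genes moved by over 1.5 times as follows. A filter at a mean of 1 CPM gave 6 for EM3 against E, 12 for M2 against E, 9 for M1 against E, 7 for M2 against M1, 2 for EM2 against EM1, 1 for E against Parental and 12 for any line. On TPM the counts were 4 for EM3, 4 for EM2, 3 for EM1, 10 for M2 and 9 for M1 against E, 7 for M2 against M1, 1 for EM2 against EM1 and 10 for any line. Both settings test fewer genes by construction. No filter gave 6 for EM3 against E and 4 for E against Parental, and the library set as a term gave 5 for EM3 and 6 for EM2 against E. The compared lines alone gave 2 for EM2 against EM1 and 5 for E against Parental, and DESeq2 gave 5 for E against Parental. The cause was not tested.

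Leaving out single libraries gave counts of 1 to 10 for EM3, 4 to 10 for EM2, 1 to 6 for EM1, 16 to 22 for M2 and 10 to 15 for M1 against E. It gave 9 to 13 for M2 against M1, 3 to 4 for EM2 against EM1, 0 to 0 for EM3 against EM1, 1 to 3 for E against Parental and 19 to 23 for any line. Expressed HOX genes then numbered 13 to 15 in EM3, 13 to 14 in EM2, 12 to 14 in EM1, 14 to 15 in M2, 15 to 16 in M1, 11 to 12 in E and 13 to 13 in Parental. With the replicate number as a block the counts were 10 for EM3, 10 for EM2, 6 for EM1, 22 for M2 and 15 for M1 against E, 12 for M2 against M1, 4 for EM2 against EM1, 0 for EM3 against EM1, 5 for E against Parental and 21 for any line. Same-numbered libraries correlated at -0.039 to 0.791, and the labels do not say that a number marks a shared culture or day. The 3 libraries per line and the BCV of 0.344 limit what can be called at low counts, as does the set of short effective lengths that holds all E libraries.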
